A study of Mus musculus with 12 samples.

Results

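Toll-like receptors are innate immune receptors for microbial products. Those at the cell surface bind lipids and proteins of bacteria, and those in endosomes bind nucleic acids. The expression of 8 Toll-like receptor genes, of the coreceptor gene Cd14 and of Ly96, which encodes the subunit MD-2 of the lipopolysaccharide receptor, was examined in the livers of F1 male mice. The genes were chosen by symbol, and all 10 were among the 21683 genes of the table. In liver these receptors are found mainly on Kupffer cells, the resident macrophages, and on other blood-derived and sinusoidal cells, and Cd14 is also made by hepatocytes in inflammation. Cd14 hands lipopolysaccharide to the complex of Tlr4 and Ly96. Receptor engagement recruits the adaptor Myd88 or Ticam1 and leads to NF-kB activity and cytokine expression.

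The 12 libraries, 1 per liver, came from wild-type C57BL/6J male offspring. In the paternal DCHP group (n = 6) the sires had received dicyclohexyl phthalate (DCHP), a phthalate plasticizer, in corn oil by daily oral gavage for 4 weeks from 8 weeks of age, and in the paternal control group (n = 6) the sires had received corn oil alone. Sires were then mated with unexposed females. From weaning at 3 weeks of age all offspring ate a high-fat diet, and livers were collected 9 weeks later, at 12 weeks of age. Litter and sire of each animal are not given, so a p-value here covers only the spread among these 12 animals. Libraries are called DCHP 1 to 6 and control 1 to 6 after the numbers in their titles. Totals of estimated counts lay between 23794728 and 30445338 per library.

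Cd14, Tlr8 and Tlr13 were higher with paternal DCHP, by 2.77-fold, 3.07-fold and 2.24-fold. They were the 3 of 10 genes called by the edgeR quasi-likelihood test at a false discovery rate under 0.1 and a fold change above 1.5, a call that 0.963% of the 12459 tested genes reached in the same direction. None of the 10 was called lower, against 0.313% of tested genes (1.28% in either direction). DESeq2 called the same 3 genes, with 1.95% of tested genes called higher, and limma-voom called Cd14 alone, with 0.594% (0.939% in either direction). Tlr2, Tlr3, Tlr4, Tlr5, Tlr7 and Ly96 were tested and did not pass, and Tlr9 had too few counts to be tested. All 9 tested genes had positive log2 fold changes, with a median of 0.67, against 51.5% positive and a median of 0.01 over all tested genes. The genes were measured in the same livers, so these are not 9 independent results. Tlr8 entered the test through the paternal DCHP group, where 6 livers reached the minimum counts-per-million (CPM) level for testing, 0.387, against 4 control livers, and 6 libraries were needed. The other tested genes of the family reached that minimum in all 12 libraries.

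**Figure D1:**
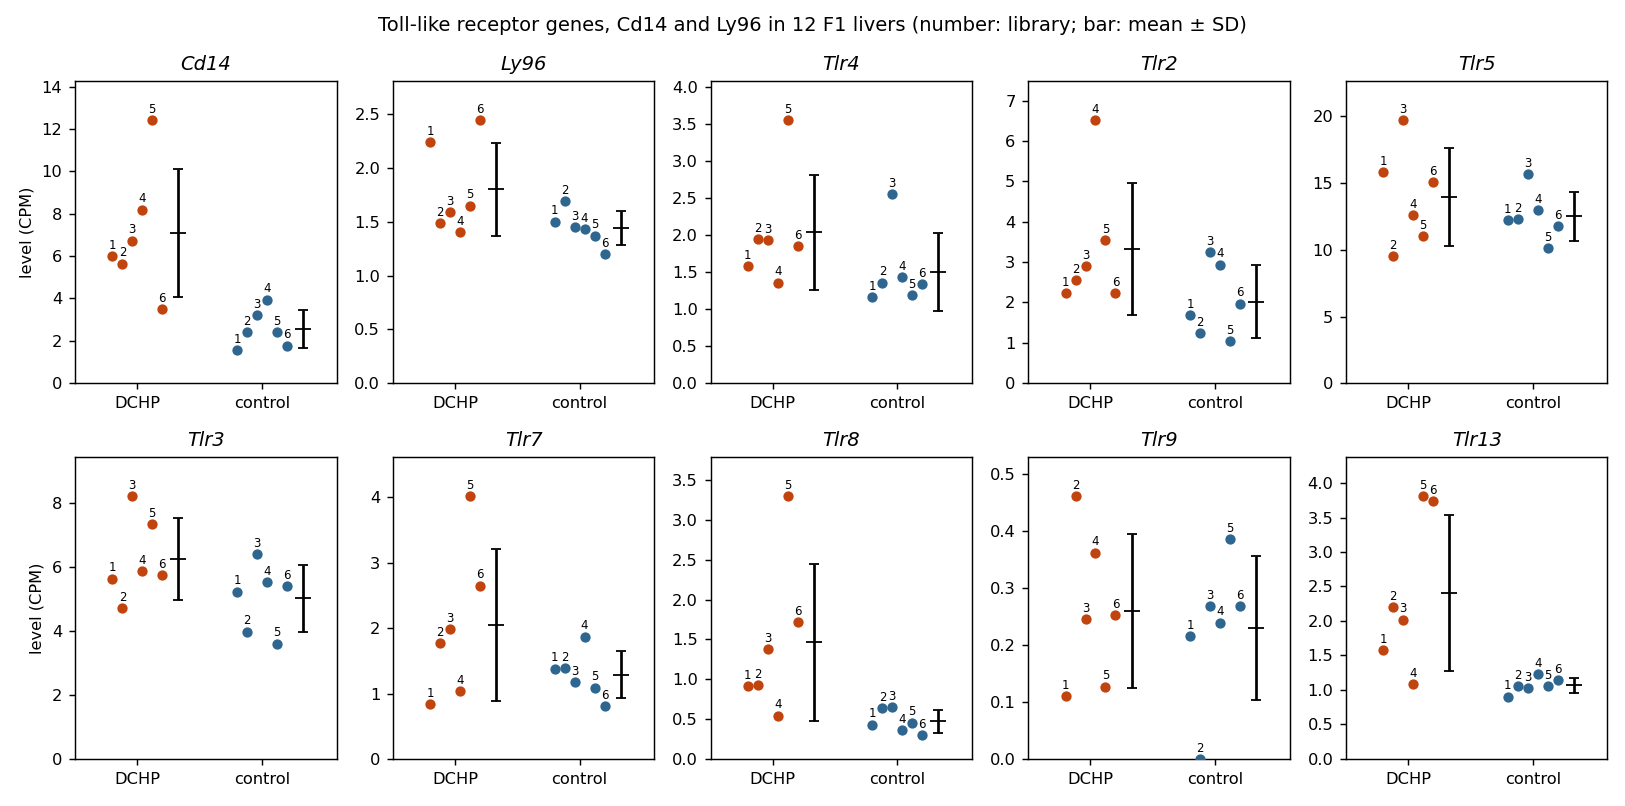
Counts-per-million levels (CPM, y axis, each panel with its own scale from 0) of the 10 genes in 6 livers of the paternal DCHP group (left, red) and 6 of the paternal control group (right, blue). Numbers name the library and the bar is the mean ± SD. For Cd14, Tlr8 and Tlr13, 5 of the 6 DCHP livers lay above every control liver. DCHP 5 was the highest of the 12 livers for Cd14, Tlr4, Tlr7, Tlr8 and Tlr13, as it was for 18.9% of all tested genes. DCHP 4 was the highest for Tlr2.

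Tlr8 and its neighbour Tlr7 encode endosomal receptors of single-stranded RNA, although the mouse Tlr8 protein responds poorly to ligands of the human one. Tlr13, which humans lack, encodes a mouse receptor of bacterial ribosomal RNA. Because both called receptor genes lie on the X chromosome and were high in the same livers, the 250 bases before their annotated RefSeq start sites are shown (GRCm38.p6). The capitals mark matches to GAGGAA, the core bound by ETS factors such as PU.1, and to the C/EBP motif TTGCNNAA, read on both strands.
Tlr8, chrX:167264330-167264579, minus strand: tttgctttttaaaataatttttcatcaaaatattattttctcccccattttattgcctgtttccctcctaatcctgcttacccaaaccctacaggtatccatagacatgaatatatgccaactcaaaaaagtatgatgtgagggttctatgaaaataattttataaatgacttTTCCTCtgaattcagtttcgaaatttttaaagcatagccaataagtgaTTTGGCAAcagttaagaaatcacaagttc
Tlr13, chrX:106143025-106143274, plus strand: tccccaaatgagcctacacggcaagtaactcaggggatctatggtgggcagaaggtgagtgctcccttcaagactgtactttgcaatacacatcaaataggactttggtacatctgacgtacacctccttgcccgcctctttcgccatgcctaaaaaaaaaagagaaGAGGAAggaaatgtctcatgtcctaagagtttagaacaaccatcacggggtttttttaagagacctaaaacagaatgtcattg
The GAGGAA core stood in each window, from base -77 before Tlr8 (as TTCCTC) and from base -83 before Tlr13. It was found in 23.3% of the 32851 promoter windows of this length. The C/EBP match from base -29 of Tlr8 belongs to a motif held by 9.56% of windows. Neither window held the AP-1 motif TGANTCA, a short NF-kB motif or the interferon-stimulated response element, which were found in 6.75%, 45.8% and 2.98% of windows. These matches are descriptions of the sequence and not evidence of binding. The start of Tlr13 in the GENCODE annotation, used for the gene spans, lies inside the window shown, so that the last part of this window is within the gene by that annotation and the GAGGAA match lies just before that start. Tlr7 had no entry in the promoter table.

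Tlr8 was measured from few counts. It had 25, 26, 45, 12, 78 and 41 counts in DCHP 1 to 6, a sum of 227, against 10, 17, 17, 9, 13 and 9 counts in control 1 to 6, a sum of 75. All DCHP livers but DCHP 4 lay above every control liver, and DCHP 5 stood highest. At 0.543 CPM, DCHP 4 lay between the controls, whose highest level was 0.65 CPM. On average Tlr8 was at 1.46 ± 0.99 CPM in the paternal DCHP group and 0.47 ± 0.14 CPM in the paternal control group (SD, n = 6 each). Its log2 fold change was 1.62 ± 0.40 (SE, edgeR adjusted p = 0.0728, DESeq2 adjusted p = 0.00848). The annotated Tlr8 gene spans chrX:167242696-167264329 (minus strand, GRCm38), with 40599 bases between it and Tlr7. The study picked Tlr8 from these libraries, so its call here is not independent of that choice. By quantitative PCR the study also reported higher hepatic Tlr8 in F1 offspring. It reported unchanged Tlr8 in livers of females of the next generation. Whether the F1 animals of that assay were those sequenced is not given.

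Tlr13 had 43, 62, 66, 24, 90 and 89 counts in DCHP 1 to 6, against 21, 28, 27, 31, 30 and 34 counts in control 1 to 6. As for Tlr8, only DCHP 4 fell among the controls. The control livers were close together, from 0.90 to 1.23 CPM with a coefficient of variation of 10.3%, whereas the DCHP livers spread from 1.09 to 3.81 CPM with a coefficient of 46.9%. The log2 fold change of Tlr13 was 1.16 ± 0.29 (SE, edgeR adjusted p = 0.0728, DESeq2 adjusted p = 0.00843). The Tlr13 gene spans chrX:106143204-106160493 (plus strand). A level above every control in at least 5 of 6 DCHP livers, as in Tlr8, Tlr13 and Cd14, was found for 3.61% of tested genes.

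Tlr7 had 23, 50, 65, 23, 95 and 63 counts in DCHP 1 to 6, against 32, 37, 31, 47, 31 and 24 counts in control 1 to 6. DCHP 5 and DCHP 6 were again the highest livers, but DCHP 1, DCHP 2 and DCHP 4 lay within the control range. The log2 fold change of Tlr7, 0.67 ± 0.35, did not pass (SE, edgeR adjusted p = 0.309). After subtraction of the group means, log2 CPM of Tlr7 followed that of Tlr8 with a Pearson r of 0.775 (Spearman rho 0.678) and that of Tlr13 with 0.806 (rho 0.706) over the 12 livers. Without DCHP 1 and DCHP 5, the livers farthest from the median of Tlr7, r was 0.652 and 0.712. Tlr8 and Tlr13 had an r of 0.775 and a rho of 0.448, and without DCHP 4 and DCHP 5 their r was 0.376, so that the relation rested largely on these livers. The values of one liver share its library and its cell makeup, and these correlations are given as descriptions.

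Tlr3, the receptor of viral double-stranded RNA, was at 6.27 ± 1.29 CPM in the paternal DCHP group and 5.04 ± 1.05 CPM in the paternal control group (SD, n = 6 each). Both groups overlapped widely, from 4.72 to 8.23 CPM and from 3.61 to 6.42 CPM, and the log2 fold change of Tlr3 was 0.32 ± 0.17 (SE, edgeR adjusted p = 0.324). An antisense gene, Gm45542, overlaps Tlr3 exons, and the strand setting of the counting is not given. Tlr9, which binds bacterial DNA, had 3, 13, 8, 8, 3 and 6 counts in DCHP 1 to 6, against 5, 0, 7, 6, 11 and 8 counts in control 1 to 6. The sums of Tlr9 were 41 and 37 counts. Only 1 library reached the minimum for testing, and the count of 0 in control 2 allows up to 0.113 CPM (3 counts, counting error only). In a fit without the filter the log2 fold change of Tlr9 was 0.18 ± 0.60 (SE, edgeR adjusted p = 0.906), and a difference between the groups was not detectable at this depth.

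Cd14 had the smallest p of the family. It had 164, 159, 220, 181, 293 and 82.8 estimated counts in DCHP 1 to 6, against 36.4, 64.4, 84, 98.5, 69.1 and 53.0 in control 1 to 6. Every DCHP liver lay above the control mean of 2.55 CPM, and only DCHP 6, at 3.49 CPM, lay below the highest control, control 4 at 3.94 CPM. Cd14 averaged 7.08 ± 3.02 CPM in the paternal DCHP group and 2.55 ± 0.90 CPM in the paternal control group (SD, n = 6 each). The log2 fold change of Cd14 was 1.47 ± 0.29 (SE, edgeR adjusted p = 0.0434, DESeq2 adjusted p = 0.000191, limma-voom adjusted p = 0.0575). The Cd14 gene spans chr18:36725067-36726798 (minus strand). Its estimated counts were whole numbers in only 1 of 12 libraries although no annotated exon of another gene overlaps it. How these fractions arose is not given.

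The partners of Cd14 in the lipopolysaccharide receptor did not pass the test. Tlr4 had 43, 55, 63, 30, 84 and 44 counts in DCHP 1 to 6, against 27, 36, 67, 36, 34 and 40 counts in control 1 to 6. In each group 1 liver stood well above the rest, DCHP 5 at 3.55 CPM and control 3 at 2.56 CPM, and the remaining livers ranged from 1.36 to 1.95 CPM and from 1.16 to 1.43 CPM. Tlr4 had a log2 fold change of 0.43 ± 0.27 (SE, edgeR adjusted p = 0.402). Ly96 ranged from 1.40 to 2.44 CPM in the paternal DCHP group and from 1.20 to 1.69 CPM in the paternal control group, with DCHP 1 and DCHP 6 above every control. Its log2 fold change was 0.32 ± 0.20 (SE, edgeR adjusted p = 0.394).

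Tlr2, a receptor of bacterial lipoproteins, did not pass the test. It had 61, 72, 95, 144, 84 and 53 counts in DCHP 1 to 6, against 39, 33, 85, 74, 30 and 59 counts in control 1 to 6. DCHP 4, the lowest of the DCHP livers for Tlr8 and Tlr13, was the highest for Tlr2 at 6.51 CPM. The groups overlapped, since control 3 and control 4 reached 3.25 and 2.94 CPM. The log2 fold change of Tlr2 was 0.72 ± 0.33 (SE, edgeR adjusted p = 0.260), with an unadjusted p of 0.0481, a level under 0.05 that 18.9% of all tested genes reached. Without DCHP 4 it was 0.43. Tlr5, the flagellin receptor, had 261 to 644 estimated counts per library. It ranged from 9.54 to 19.7 CPM in the paternal DCHP group and from 10.1 to 15.7 CPM in the paternal control group, a log2 fold change of 0.16 ± 0.16 (SE, edgeR adjusted p = 0.614).

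Levels of different genes were compared per length, as CPM divided by the annotated exon length in kilobases (RPKM). In the paternal DCHP livers Cd14 averaged 4.09 ± 1.75 RPKM and Tlr5 2.91 ± 0.77 RPKM, whereas in the paternal control livers Cd14 was at 1.47 ± 0.52 RPKM and Tlr5 at 2.61 ± 0.38 RPKM (SD, n = 6 each). Within the same liver Cd14 exceeded Tlr5 in 4 of 6 DCHP livers and in 0 of 6 control livers. Ly96 came next (1.76 ± 0.42 and 1.41 ± 0.16 RPKM in the DCHP and control groups), followed by Tlr3 (1.20 ± 0.25 and 0.97 ± 0.20 RPKM) and Tlr2 (1.11 ± 0.54 and 0.67 ± 0.30 RPKM). Tlr7, Tlr13, Tlr4 and Tlr8 followed at 0.366 to 0.559 RPKM in the DCHP group and 0.132 to 0.315 RPKM in controls. Among these, Tlr7 exceeded Tlr13 in 3 of 6 DCHP livers and 5 of 6 control livers, and Tlr4 exceeded Tlr8 in 3 and in 6, so that their order did not hold over livers. Tlr9 was lowest (0.0746 ± 0.0389 and 0.0658 ± 0.0364 RPKM). With the length of the longest transcript in place of all exons, Tlr5 ranked before Cd14 over the 12 livers, and Tlr4 moved before Tlr7 and Tlr13.

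**Figure D2:**
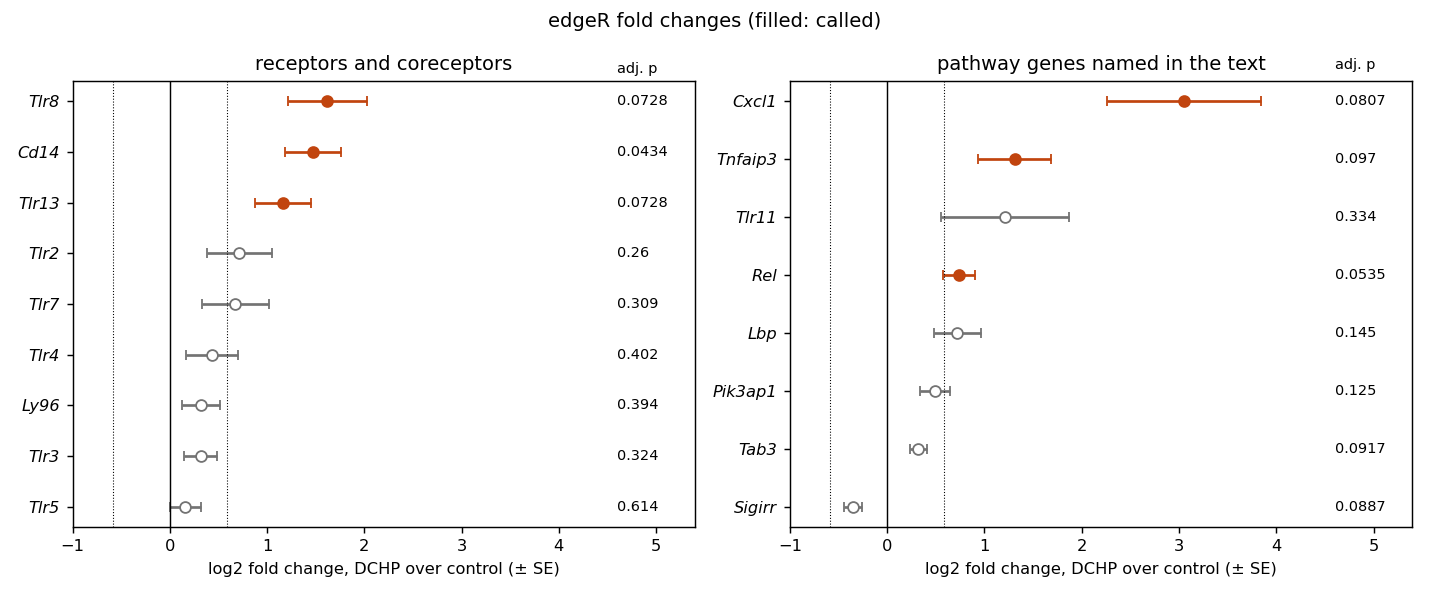
Log2 fold change of paternal DCHP over paternal control with its SE (x axis) for the 9 tested genes of the family (left) and for 8 pathway genes named in the text (right). Filled points were called by edgeR, dotted lines mark the fold change of 1.5, and adjusted p stands at the right. Cd14, Tlr8 and Tlr13 lie above the other 6 tested genes of the family, whose log2 fold changes lay between 0.16 and 0.72.

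Kupffer cell markers were highest in the same livers as Tlr7, Tlr8 and Tlr13, DCHP 5 and DCHP 6. All 12 markers of a list that includes Clec4f, Vsig4 and Timd4 had higher means in the paternal DCHP group, and 0 were called. For comparison, 51.5% of all tested genes had a positive log2 fold change and 1.28% were called in either direction. The markers were measured in the same livers and are not 12 independent results. Their summed level ranged from 243 to 708 CPM in the paternal DCHP group and from 210 to 332 CPM in the paternal control group, with no marker at 0. DCHP 5 and DCHP 6 held the highest sums, 708 and 487 CPM, DCHP 3 stood just above the controls at 367 CPM, and DCHP 1, DCHP 2 and DCHP 4 lay within the control range at 253, 286 and 243 CPM. Clec4f, a lectin gene particular to Kupffer cells, was at 77.8 ± 22.8 CPM in the paternal DCHP group and 54.8 ± 9.95 CPM in the paternal control group (SD, n = 6 each, log2 fold change 0.51 ± 0.17 SE, edgeR adjusted p = 0.145). In bulk tissue a higher level from more cells and from more RNA per cell cannot be told apart.

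The call of Cd14 held with these markers in the model, and those of Tlr8 and Tlr13 did not. With the Kupffer marker score of each liver as a covariate, the log2 fold change of Cd14 was 1.29 ± 0.28 and still passed (SE, edgeR adjusted p = 0.0594), as did 0.995% of tested genes in that direction. That of Tlr8 was 0.95 ± 0.27 (adjusted p = 0.115) and that of Tlr13 0.76 ± 0.24 (adjusted p = 0.165), and neither passed. Tlr7 and Tlr4 were left with 0.09 ± 0.23 and 0.13 ± 0.22, and Tlr2 with 0.70 ± 0.35. DCHP 5 and DCHP 6, left out together after the data were seen, were the highest livers of Tlr8 and Tlr13 but the highest and the lowest DCHP liver of Cd14, so that their removal had to lower the first 2 genes more than Cd14, and no contrast between the genes is drawn from it. Without them the log2 fold change was 1.00 ± 0.34 for Tlr8 (SE, edgeR adjusted p = 0.174), 0.69 ± 0.24 for Tlr13 (0.193) and 1.38 ± 0.24 for Cd14 (0.0357, with 0.894% of tested genes called higher). The covariate was measured in the same libraries, and the difference between the 3 genes in this respect was not tested.

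**Figure D3:**
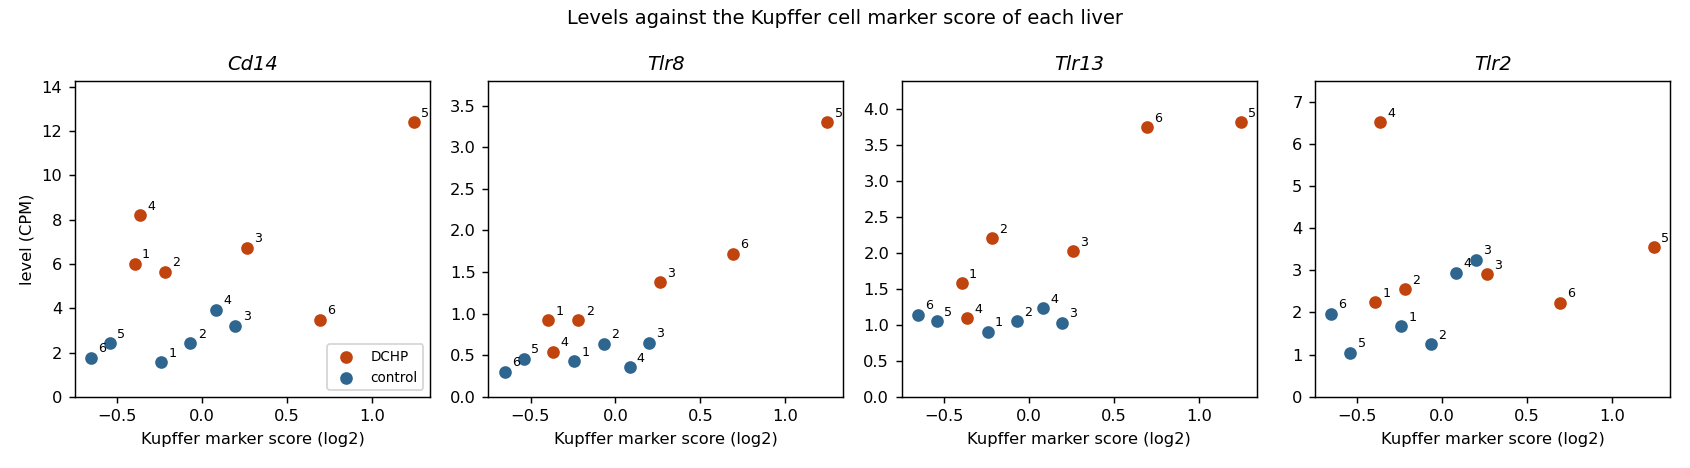
Levels (CPM, y axis from 0) of Cd14, Tlr8, Tlr13 and Tlr2 against the Kupffer marker score of the same liver (x axis, mean centred log2 CPM of 12 markers) in the paternal DCHP (red) and paternal control (blue) groups, with library numbers. DCHP 5 and DCHP 6 have the highest scores, 1.25 and 0.69, and the highest Tlr8 and Tlr13. Cd14 lies above every control liver in all DCHP livers but DCHP 6. Tlr8 and Tlr13 do so in all DCHP livers but DCHP 4, which lies among the controls. The part of the marker score in these positions was not tested.

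Of other cell types only the levels of the markers were compared. Over all tested genes 51.5% had a positive log2 fold change and 1.28% were called in either direction. The 5 hepatocyte markers summed to 55000 to 81200 CPM in the paternal DCHP group and 58800 to 73300 CPM in the paternal control group, with 4 of 5 higher in mean and 0 called. Among them Alb, the albumin gene, was at 48700 ± 8210 CPM in the paternal DCHP group and 46300 ± 4130 CPM in the paternal control group (SD, n = 6 each). Ttr, the transthyretin gene, named after its values were seen, went the other way. It was at 3620 ± 223 CPM in the paternal DCHP group and 4420 ± 205 CPM in the paternal control group (SD, n = 6 each). The log2 fold change of Ttr was -0.29 ± 0.07 (SE, edgeR adjusted p = 0.0676), short of the fold change threshold. Neutrophil markers summed to 5.68 to 10.7 CPM in the paternal DCHP group and 2.66 to 6.48 CPM in the paternal control group, with 6 of 8 higher in mean. Of these S100a9, named after its values were seen, was called (log2 fold change 1.85 ± 0.53 SE, edgeR adjusted p = 0.095), and Ly6g was at 0 in all 12 libraries. DCHP 4 had the highest neutrophil sum. Erythroid markers summed to 145 to 387 CPM in the paternal DCHP group and 151 to 231 CPM in the paternal control group, with the highest sum in DCHP 5. Monocyte markers summed to 6.05 to 12.6 CPM and 4.55 to 10.5 CPM in the DCHP and control groups, with 4 of 5 higher in mean. Sums of sinusoidal endothelial markers (166 to 203 CPM against 167 to 201 CPM in controls) and of dendritic cell markers (3.66 to 7.52 CPM against 3.78 to 6.19 CPM) overlapped. In each of these lists 3 of 6 markers were higher in mean. B cell markers summed to 0.543 to 1.6 CPM against 0.678 to 2.45 CPM in controls, with 0 of 4 higher in mean. Higher means were held by 5 of 5 erythroid, 3 of 6 T and NK cell, 4 of 6 stellate and 3 of 4 cholangiocyte markers. The part of these cells in the results above was not tested.

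Calls were lost without single libraries, most of them controls. Over the 12 fits that each left out 1 library, Cd14 kept its call in 10 and lost it without control 3 or control 6 (edgeR adjusted p = 0.10 and 0.105). Tlr8 kept its call in 6 and lost it without DCHP 5 or without control 1, 3, 4, 5 or 6 (adjusted p up to 0.146). Tlr13 kept it in 6 and lost it without the same libraries (adjusted p up to 0.145). The log2 fold changes stayed between 1.24 and 1.63 for Cd14, 1.21 and 1.80 for Tlr8, and 0.99 and 1.32 for Tlr13, and without DCHP 5 the estimate was the lowest for each. Among all tested genes there were 159 calls. Removal of control 3 gave 7 calls, that of control 4 or control 6 gave 33, that of control 5 gave 38 and that of control 1 gave 105. Among DCHP libraries, removal of DCHP 5 gave 77 calls and that of DCHP 4 gave 69, although the 3 genes kept their calls without DCHP 4.

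**Figure D4:**
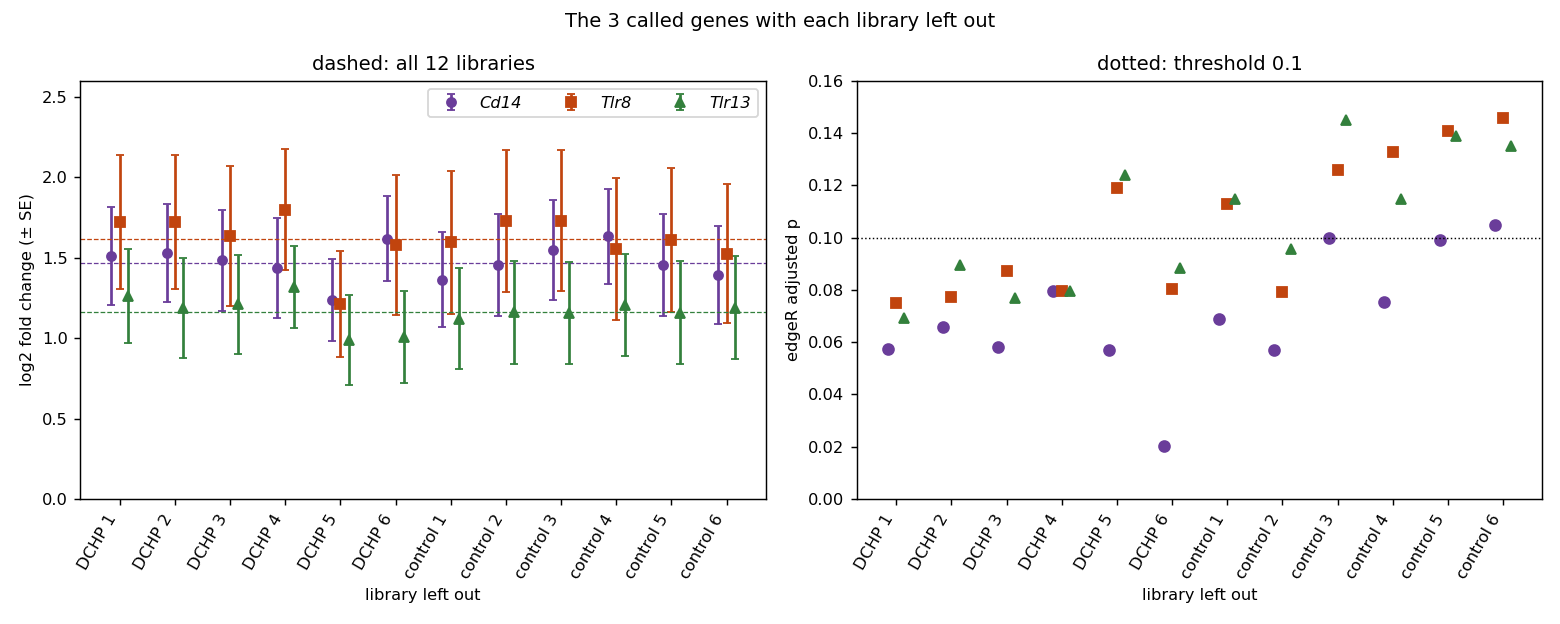
Log2 fold change with its SE (left, y axis; dashed lines give the value with all 12 libraries) and edgeR adjusted p (right, y axis; dotted line at 0.1) of Cd14, Tlr8 and Tlr13 when the library on the x axis was left out. The fold changes of the 3 genes lie between 0.99 and 1.80 throughout, while the adjusted p of Tlr8 and Tlr13 crosses the threshold without DCHP 5 and without most control libraries.

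Of 62 other genes of the pathway, 51 were tested, 3 were called higher and 0 lower, with a median log2 fold change of 0.15. Over all tested genes 0.963% were called higher and 0.313% lower, with a median of 0.01. These shares also stand beside the counts by role that follow. Among receptors outside the family studied here, 0 of 5 tested genes were called. Tlr11, a receptor of protozoan profilin, had 69 and 29 counts summed over the 6 DCHP and the 6 control livers and did not pass (log2 fold change 1.21 ± 0.66 SE, edgeR adjusted p = 0.334). Of the 7 genes of ligand transfer and trafficking 0 were called. Lbp, whose hepatocyte product carries lipopolysaccharide to Cd14, ranged from 64.2 to 199 CPM in the DCHP livers. In the controls it ranged from 50.8 to 64.0 CPM, without overlap, a separation found for 0.907% of tested genes. DCHP 4 stood at 199 CPM and the other DCHP livers at 83.5 CPM or less. The log2 fold change of Lbp was 0.72 ± 0.25 (SE, edgeR adjusted p = 0.145, DESeq2 adjusted p = 0.0475), and it was 0.35 without DCHP 4.

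Of 4 tested adaptor genes 0 were called. The smallest p among them was that of Pik3ap1 (log2 fold change 0.49 ± 0.16 SE, edgeR adjusted p = 0.125). Of 16 kinase and ubiquitin ligase genes 0 were called, and Tab3, which encodes a subunit of the TAK1 kinase complex, had a log2 fold change of 0.32 ± 0.09 with an adjusted p of 0.0917 that fell short of the fold change threshold. Of 7 transcription factors 1 was called, the NF-kB subunit gene Rel. Rel was at 16.8, 8.55, 10.7, 11.4, 13.4 and 8.82 CPM in DCHP 1 to 6, all above the control range of 5.35 to 7.87 CPM, a separation found for 0.907% of tested genes. Its log2 fold change was 0.74 ± 0.16 (SE, edgeR adjusted p = 0.0535), 0.74 ± 0.18 with the Kupffer score as a covariate (0.0774). Leaving out control 3, 4, 5 or 6 ended the call of Rel, with edgeR adjusted p from 0.102 to 0.112.

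Of 7 tested inhibitors 1 was called, Tnfaip3, whose product A20 ends NF-kB signalling. Tnfaip3 levels were 11.6, 4.68, 4.81, 25.5, 6.13 and 8.02 CPM in DCHP 1 to 6, against 2.62 to 4.78 CPM in controls, so that DCHP 2 lay within the control range and DCHP 3 just above it. Its log2 fold change was 1.31 ± 0.38 (SE, edgeR adjusted p = 0.097), it was 0.80 without DCHP 4, and it was called in 3 of the 12 fits that left out a library, those without DCHP 2, 3 or 6. Sigirr, an inhibitory receptor gene named after its values were seen, did not reach the fold change threshold (log2 fold change -0.35 ± 0.10 SE, edgeR adjusted p = 0.0887). Of 12 genes of secreted cytokines and chemokines 5 were tested and 1 called, Cxcl1. Cxcl1, a chemokine gene for neutrophils, had 11.5, 2.09, 2.20, 92.1, 10.1 and 12.4 CPM in DCHP 1 to 6, whereas the controls held 1.95 to 3.50 CPM, so that DCHP 2 and DCHP 3 lay within the control range. Its log2 fold change was 3.05 ± 0.80 (SE, edgeR adjusted p = 0.0807), it was 1.55 without DCHP 4 (adjusted p = 0.109), and it was called in 4 of the 12 fits that left out a library, those without DCHP 1, 2, 3 or 6. Tnf and Il6, cytokine genes named after their values were seen, were too scarce to test, with 35 and 20 counts of Tnf and 9 and 2 counts of Il6 summed over the DCHP and the control livers.

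The genes whose levels were most alike to each called gene were taken by the Pearson correlation of group-centred log2 CPM over the 12 livers, out of all tested genes outside the family. For Tlr8 they were Ptpn6 (r = 0.938, rho = 0.895), Fyb (0.933, 0.930) and Nckap1l (0.929, 0.923), and without DCHP 4 and DCHP 5 the r values were 0.795, 0.909 and 0.771. For Tlr13 they were Smpdl3a (r = 0.925, rho = 0.811), Rab8b (0.915, 0.853) and Elf4 (0.915, 0.664), and without the same livers 0.915, 0.870 and 0.768. For Cd14 they were Foxp2 (r = 0.862, rho = 0.769), Gabbr2 (0.839, 0.762) and Akap12 (0.831, 0.804), and without DCHP 5 and DCHP 6 they were 0.688, 0.634 and 0.799. None of these 9 genes passed the test between groups, with edgeR adjusted p from 0.165 for Elf4 to 0.986 for Akap12. As the highest of many correlations they are given as descriptions.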

How the data were processed

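Hepatic RNA-seq of 12 livers was analysed from 1 table of estimated counts per gene symbol deposited by the authors, in which 43.6% of values were not whole (tolerance 0.0005). Per the labels the genome build was mm10, and for the aligner, counting program, annotation and strand setting nothing is given in the sources used here. Columns were matched to libraries by their descriptions, and groups were taken from the titles. Estimated counts were rounded, and 4782 of 21683 genes had no count. Genes were filtered with filterByExpr (minimum count 10), scaled by TMM factors and compared with the edgeR (version 4.0.16, R version 4.3.3) quasi-likelihood test without covariates, with Benjamini-Hochberg adjustment over 12459 genes. The test was checked on simulated counts. SE was taken from the F statistic, as |log2 fold change| over its square root. CPM used TMM-scaled library sizes.

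Positions and exon lengths came from GENCODE release M21, and promoters from RefSeq. Genes named were all 10 members, called pathway genes or the one with the smallest p in each role, the 3 genes most alike to each called member, and the markers Clec4f, Vsig4, Timd4 and Alb. Sigirr, Tnf, Il6, S100a9, Ly6g, Ttr and Tlr12 were named outside this rule, after their values were seen. Members and lists were chosen with earlier results of these data known. Alternatives were RLE and upper-quartile factors, other filters, robust dispersions, DESeq2 (version 1.42.0), limma-voom (limma version 3.58.1), a replicate block, a Kupffer score covariate and each library left out. Removal of DCHP 5 and DCHP 6 together was chosen after the data were seen.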

Additional observations from a re-analysis of the deposited data

Results flagged for a closer look

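Over 36 groups of 6 livers, 2 for each of 18 genes named in the report, 6 had a liver whose gap to its nearest neighbour was large against the whole range of the group (above the 95% critical value of Dixon's ratio). About 1 in 20 groups would be picked out in this way by chance if levels were independent and normal. CPM levels were not transformed and most groups picked out share DCHP 4, so this rate may not hold here. DCHP 4 stood apart in the paternal DCHP group for Cxcl1 (92.1 CPM, the next liver being DCHP 6 at 12.4 CPM), Lbp (199 CPM, next DCHP 1 at 83.5 CPM), Tnfaip3 (25.5 CPM, next DCHP 1 at 11.6 CPM) and Tlr2 (6.51 CPM, next DCHP 5 at 3.55 CPM). Tlr4 was picked out in both groups, in DCHP 5 (3.55 CPM, next DCHP 2 at 1.95 CPM) and in control 3 (2.56 CPM, next control 4 at 1.43 CPM).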

How the results depend on the processing

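The 9 tested members kept a positive log2 fold change in all 197 values from 22 alternatives. Of the members called, 1 (Cd14) was left with the Kupffer score as a covariate and with limma-voom. Tlr8 then had log2 fold changes of 0.95 and 1.42, and Tlr13 of 0.76 and 1.02, none of them called. Without DCHP 5 and DCHP 6 together, the highest livers of Tlr8 and Tlr13, 1 member was called and these genes had 1.00 and 0.69, a loss that follows from the livers removed and says nothing on Cd14. The count of members called lay between 0 and 3 when single libraries were left out, being 0 without control 3 or control 6, and the log2 fold changes between 1.24 and 1.63 for Cd14, 1.21 and 1.80 for Tlr8, and 0.99 and 1.32 for Tlr13. Over the whole table, 159 calls became 326 with DESeq2 and lay between 7 and 233 when single libraries were left out. Of pathway genes, 3 calls became 1 with robust dispersions and with limma-voom, and lay between 0 and 4 when single libraries were left out. The cause of these shifts was not tested. Same-numbered livers of both groups did not deviate together (correlations of deviations from -0.119 to 0.174, and 3 of 12 libraries correlated best with their own number). Such a check cannot exclude that same-numbered animals were handled together, and the labels do not say whether the numbers pair them. The replicate block left 59 calls in the table, 1 among members (Cd14) and 1 among pathway genes, with 1.46 for Tlr8 and 1.06 for Tlr13. Counts of at most 78 for Tlr8 and 13 for Tlr9 per library limit what can be seen for these receptors.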
